A study of Mus musculus with 8 samples.

Results

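This comparison set the 4 libraries of both Mir140 mutant lines against the 4 libraries of their wild types, with the line as a blocking term, and asked which genes stood on the same side of the wild types in both lines. It used all 8 libraries of the series. The cells were chondrocytes from the rib cartilage of 10-day-old CD1 mice, freed by digestion in collagenase II overnight, filtered and plated. CG mutants carry a mutation in the seed region of the 3p arm of Mir140, and CT mutants carry a C>T base change whose position the labels do not give. The design text describes both mutations as ways of overexpressing the 5p arm, and each line has wild types of its own. Each of the 4 groups (CG wild type, CG mutant, CT wild type, CT mutant) has 2 libraries, and the labels do not say whether these came from separate animals or cultures.

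A microRNA hairpin is cut into a pair of arms, 5p and 3p, and either can be loaded into an Argonaute protein. The loaded arm pairs through its seed with sites in the 3′ UTR of mRNAs and lowers their level or translation, so that less of an arm can raise its targets and more of an arm can lower them. miR-140 is abundant in cartilage, its precursor lies in an intron of the ubiquitin ligase gene Wwp2, and its 3p arm is the more abundant one in chondrocytes. The libraries hold mRNA, and the level of neither arm was analysed here.

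The sequence that the CG mutation alters is shown in its unmutated form, since the 3p seed is the basis of the site counts given here. RefSeq places the hairpin at chr8:107551244-107551313 on the plus strand of GRCm38.p6 and the mature 3p arm at chr8:107551288-107551308. The capitals mark the 3p seed, bases 2 to 8 of the arm.
mmu-miR-140-3p: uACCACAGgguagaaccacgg
Mir140 hairpin: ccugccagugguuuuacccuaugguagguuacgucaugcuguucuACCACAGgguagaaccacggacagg

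A match to the 3p seed is CTGTGGT (7 bases, sense strand only), and its extension CTGTGGTA (8 bases) is one form of it. Among the 24 genes named from the comparison, a match was found in 5 of 12 higher genes and 0 of 12 lower genes. The stretches that hold the matches in the higher genes are shown, with the match in capitals. In C4b the match starts at base 126 of a 3′ UTR of 576 bases, in Aldh1a3 at 1701 of 1799, in Lgr6 at 978 of 3635 and in Angptl7 at 809 of 972. Tnfrsf23 has matches at bases 879 and 2928 of 3013.
C4b: tgtggccttctCTGTGGTAcccacagctgc
Tnfrsf23, base 879: tgaatggtccaCTGTGGTtcctattaaca
Tnfrsf23, base 2928: ttaccccatacCTGTGGTAacttccctcac
Aldh1a3: aaggtttacccCTGTGGTAtggtttttaaa
Lgr6: cactgagaagtCTGTGGTtctctgggctt
Angptl7: ggtagatggcgCTGTGGTttaaaacttgt

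Across all genes tested, 21.0% of the 13907 with an annotated 3′ UTR held the 7-base match. The share was 26.2% of 823 among genes that lay above the wild types in both lines and 18.8% of 707 among those that lay below them in both. The 8-base match was held by 7.29%, 4.38% and 4.39% of the higher genes, the lower genes and all genes. Median 3′ UTR length was 1624 bases in the higher genes, 1256 in the lower genes and 1357 in all, and longer UTRs have more room for matches. The part of UTR length in these shares was not tested. Over all genes tested, the median log2 fold change over both lines was 0.0073 with a 7-base match and -0.0002 without one. With an 8-base match it was 0.022. Within the higher genes, which were chosen for their direction, it was 0.28 with a 7-base match and 0.29 without one.

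Total counts ran from 26536868 to 28678641 per library. The chondrocyte markers of the labelled cell type were present in every library: Col2a1, the main collagen of cartilage, was at 24139.5 to 50163 CPM, the proteoglycan gene Acan at 2765 to 6966 CPM and the lineage factor Sox9 at 590.3 to 1002 CPM. CPM here are counts relative to a common library size after TMM scaling. Libraries of the CG and CT lines lay apart on the first principal component (64.5% of the variance). CG mutant 1 stood apart on the second (12.2%), at -47.0 against 8.36 for CG mutant 2. Counts of Y-linked Ddx3y came to 2231 and 2360 for the CG mutants against 2 and 2511 for their wild types, and to 3512 and 30 for the CT mutants against 3669 and 10 for theirs, so animals with and without a Y chromosome were not balanced between CG mutants and CG wild types.

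No gene passed the test over both lines. In the line-blocked edgeR quasi-likelihood test with Benjamini-Hochberg adjustment over 14359 genes, 0 were higher (0%) and 0 lower (0%) at an adjusted p of 0.05, and the smallest adjusted p was 0.246. At an unadjusted p of 0.05, 1639 genes were called (11.4%), 855 of them higher (5.95%) and 784 lower (5.46%). The DESeq2 Wald test with the same block called 98 higher and 71 lower genes, out of the same 14359. Both tools fitted the same counts.

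As a description beside that test, genes were counted whose groups did not overlap: in each line, the mutant libraries lay both above or both below the pair of wild types. In the CG line 3325 genes lay wholly above (23.2%) and 3225 wholly below (22.5%), and in the CT line 2473 above (17.2%) and 2346 below (16.3%). In both lines together, 847 genes lay above (5.9%) and 726 below (5.06%), 1573 in all (11%). A further 667 genes were separated in opposite directions (4.65%), 321 of them above in CG and below in CT mutants (2.24%) and 346 the reverse (2.41%). Of the genes separated in both lines, 70.2% therefore had the same direction in both. That share rests in part on CT wild type 1: without it, 1255 genes lay above and 1118 below against 2068 in opposite directions, a share of 53.4%. Without any other single library the share was from 61.3% to 71.6%. Counts without a library are larger because a group of 1 separates more easily.

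The 1573 genes had modest effects. Median log2 fold changes of the 847 higher genes were 0.31 in the CG line and 0.24 in the CT line, and those of the 726 lower genes were -0.35 and -0.28. The effect was the larger one in the CG line for 63.0% of the higher genes, 58.8% of the lower genes and 59.0% of all genes tested. Effects above 2-fold in both lines were seen in 11 of the higher and 40 of the lower genes. Among all 14359 genes tested, 109 had such effects, whatever their directions or overlap. These counts set no minimum mean log2 CPM and include unnamed gene models.

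**Figure D1:**
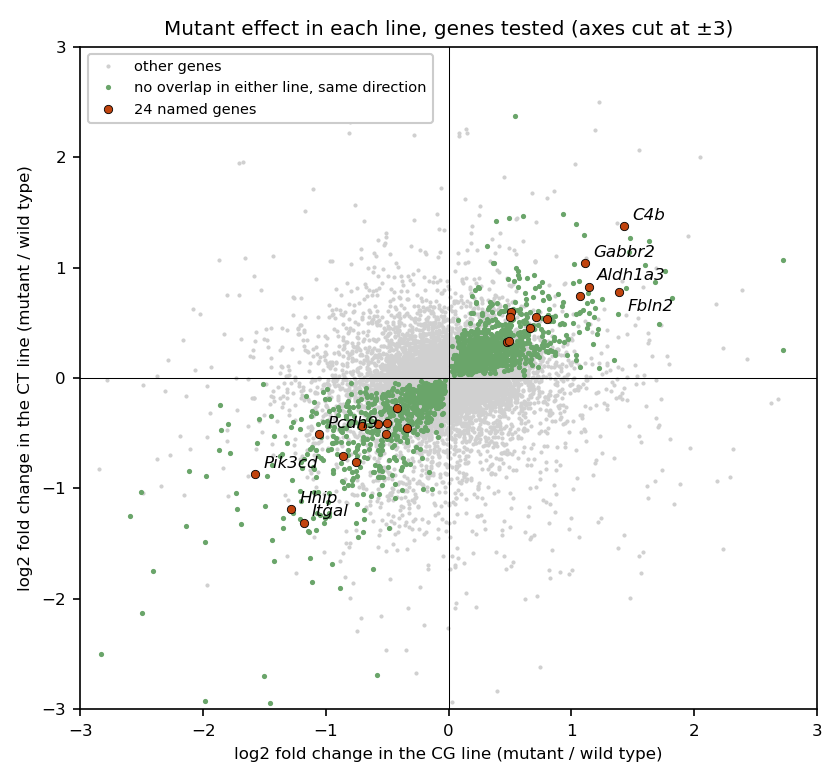
Each point is 1 of the 14359 genes tested, with its log2 fold change (mutant over wild type) in the CG line on the x axis and in the CT line on the y axis; 46 genes lie beyond the axes. The green points are the 1573 genes whose groups did not overlap in either line and had the same direction, and the red points are the 24 named genes, which lie in the upper right and lower left quadrants by the rule that chose them.

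The genes described next are the 12 higher and 12 lower ones with the smallest p over both lines, among those with no overlap in either line and a mean log2 CPM of at least 1. All 24 had an edgeR adjusted p of 0.246 and did not pass. DESeq2 called all 24. Since the rule chose them on these values, their direction and lack of overlap describe them and support nothing. The interaction of line and mutant, which passed for 3 genes in all (0.0209%), passed for none of the 24, with edgeR adjusted p-values of at least 0.967, which does not show that their effects were equal in the lines.

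Of the higher genes, those for matrix proteins are given before the others. Fbln2 encodes fibulin 2, a glycoprotein that binds elastic fibres and basement membranes. It stood at 12.2 and 12.7 CPM in the CG wild types against 36.7 and 28.3 in the CG mutants, and at 13.4 and 15.2 CPM in the CT wild types against 26.7 and 22.4 in the CT mutants. Every mutant library lay above every wild-type library, across lines as well as within them. The log2 fold change was 1.08 ± 0.15 (SE) over both lines, 1.39 ± 0.16 in the CG line and 0.78 ± 0.16 in the CT line. Nid1 encodes nidogen 1, a linker protein of basement membranes to which fibulins bind. It was at 147 and 146 CPM in the CG wild types against 209 and 206 in the CG mutants, and at 83.7 and 99.8 CPM in the CT wild types against 153 and 116 in the CT mutants. Mutants were above the wild types of their own line, but CT wild types were below CG wild types, so the CT mutants overlap with the CG wild types. Its log2 fold change was 0.53 ± 0.09, with 0.50 ± 0.14 in the CG and 0.55 ± 0.14 in the CT line. Other basement membrane genes did not share this pattern. Lamc1 lay below the wild types in both lines at -0.26 ± 0.10 (edgeR adjusted p 0.397). Nid2, Lamb1, Col4a1, Col4a2 and Hspg2 overlapped in both lines.

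C4b, which encodes complement component 4, had the largest log2 fold change of the 24, 1.40 ± 0.22 over both lines. It was at 119 and 82.5 CPM in the CG wild types against 299.7 and 242 in the CG mutants, and at 71.7 and 50.8 CPM in the CT wild types against 212 and 106 in the CT mutants. The lowest CT mutant lay within the range of the CG wild types, while each mutant pair was above its own controls. Line values were close, at 1.43 ± 0.33 in the CG line and 1.38 ± 0.33 in the CT line. C4b has a near-identical neighbour, C4a, and the counting could divide reads between them, so both are uncertain. C4a was at 2.54 to 4.5 CPM with a log2 fold change of 0.35 ± 0.17 (edgeR adjusted p 0.456), and its CT groups overlapped.

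Receptors formed the next group. Tnfrsf23 encodes a decoy receptor for the death ligand TRAIL. It stood at 60.3 and 55.5 CPM in the CG wild types against 91 and 99 in the CG mutants, and at 68.1 and 83 CPM in the CT wild types against 101 and 121 in the CT mutants. CG mutants and CT mutants were each above their wild types, and the log2 fold change was 0.63 ± 0.09. Tnfrsf22 is its near-identical copy, so that reads may be divided between them. It was also above the wild types in both lines, with 0.40 ± 0.09 on the log2 scale and an edgeR adjusted p of 0.262. C4a and Tnfrsf22 were looked at after the values were seen, because of the likeness. Of other receptor genes of that family, Tnfrsf10b lay below the wild types in both lines, at -0.32 ± 0.09 (edgeR adjusted p 0.301). Tnfrsf26, at 0.17 ± 0.17, overlapped in the CG line.

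Lgr6, a receptor for R-spondins that potentiates WNT signalling, was at 34.6 and 39 CPM in the CG wild types against 59.1 and 57.2 in the CG mutants, and at 15.4 and 19.3 CPM in the CT wild types against 24.1 and 23.5 in the CT mutants. The lines differed more than the genotypes, since all CT libraries were below all CG libraries. Its log2 fold change was 0.56 ± 0.09, with 0.66 ± 0.12 in the CG and 0.45 ± 0.13 in the CT line. Gabbr2 encodes a subunit of the GABA-B receptor. It was found at 3.01 and 4.11 CPM in the CG wild types against 9.1 and 6.26 in the CG mutants, and at 0.846 and 0.782 CPM in the CT wild types against 1.77 and 1.59 in the CT mutants, a low level in the CT line, and its log2 fold change was 1.08 ± 0.19. Other R-spondin and LGR genes did not share this pattern: of 8 tested members of that list, 3 were above 0, the median log2 fold change was -0.02, and Rspo2, a ligand of these receptors, lay below the wild types in both lines at -0.82 ± 0.33 (edgeR adjusted p 0.406). Without 1 library the median ran from -0.23 to 0.11, so it has no settled sign. Lgr5 and Rnf43, at most 0.67 and 0.141 CPM, did not pass the low-count filter. Rspo2 passed it but was also near the floor, at 0.0831 to 0.279 CPM in the CG and 0.327 to 0.6 CPM in the CT libraries.

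Aldh1a3, an enzyme that makes retinoic acid, was at 29.8 and 21.2 CPM in the CG wild types against 62.1 and 50.6 in the CG mutants, and at 32.3 and 27.6 CPM in the CT wild types against 65.8 and 40.6 in the CT mutants. All mutant libraries were above all wild-type libraries, and the log2 fold change was 0.98 ± 0.17. Angptl7, a secreted angiopoietin-like protein, stood at 3.08 and 3.27 CPM in the CG wild types against 7.73 and 5.65 in the CG mutants, and at 6 and 8.67 CPM in the CT wild types against 12.1 and 12.5 in the CT mutants. Its CT wild types overlapped with the CG mutants, and its log2 fold change was 0.90 ± 0.16. Oaf, a secreted protein gene, was at 121 and 119.6 CPM in the CG wild types against 175 and 161 in the CG mutants, and at 181 and 192 CPM in the CT wild types against 235 and 231 in the CT mutants, a log2 fold change of 0.40 ± 0.06.

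The other higher genes encode proteins inside the cell. Pkp1, plakophilin 1 of desmosomes, had a log2 fold change of 0.66 ± 0.11 and ranged from 26.3 to 84 CPM over the 8 libraries. Ptpn22, a protein tyrosine phosphatase best known from lymphocytes, was at 0.55 ± 0.09 and from 5.75 to 17.2 CPM. Pcm1, a scaffold of centriolar satellites, was at 0.41 ± 0.07 and from 39.4 to 72.7 CPM. Values for all 3 were higher in the CT wild types than in the CG wild types. The last gene inside the 12, Angptl7, had an unadjusted edgeR p of 0.00035, and the first outside them, Rcn1 of the endoplasmic reticulum, had 0.000365 and a log2 fold change of 0.56 ± 0.10.

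**Figure D2:**
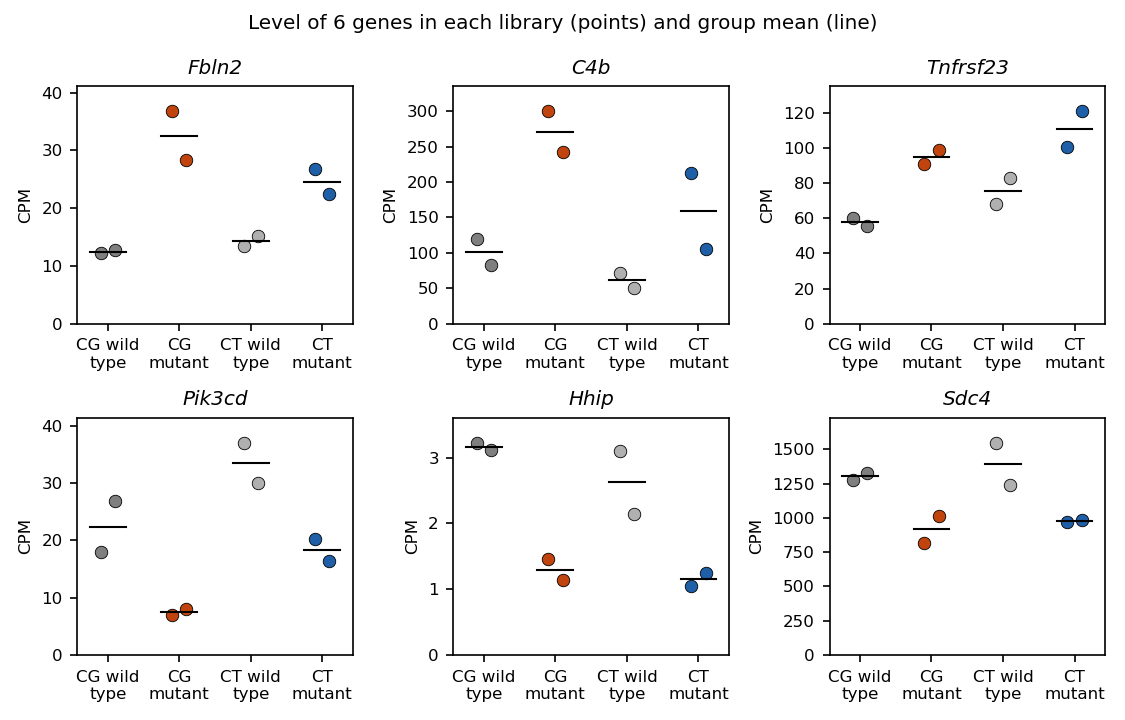
Level in CPM (y axis, from 0) of 3 higher and 3 lower genes, with 1 point per library and a line at the mean of the 2 libraries of each group on the x axis. In each line both mutant points lie on one side of both wild-type points; for Fbln2 the mutants run from 22.4 to 36.7 CPM and the wild types from 12.2 to 15.2.

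Among the lower genes, Pik3cd encodes the catalytic subunit p110δ of phosphoinositide 3-kinase, which is enriched in leukocytes. It stood at 17.9 and 26.9 CPM in the CG wild types against 6.94 and 8.05 in the CG mutants, and at 37 and 29.9 CPM in the CT wild types against 20.2 and 16.3 in the CT mutants. CG mutants were the lowest pair and CT wild types the highest, and the log2 fold change was -1.21 ± 0.19, with -1.58 ± 0.22 in the CG and -0.87 ± 0.21 in the CT line. Itgal encodes the αL chain of the leukocyte integrin LFA-1. It was at 1.7 and 2.35 CPM in the CG wild types against 0.665 and 1.11 in the CG mutants, and at 7.09 and 4.56 CPM in the CT wild types against 2.42 and 2.27 in the CT mutants. CT mutants, the lower pair of their line, stood at about the level of CG wild types, and the log2 fold change was -1.26 ± 0.23.

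Leukocyte markers were mostly lower beside Pik3cd and Itgal. The common leukocyte antigen gene Ptprc was at 1.2 and 1.68 CPM in the CG wild types against 0.374 and 0.992 in the CG mutants, and at 9.98 and 4.86 CPM in the CT wild types against 2.55 and 3.72 in the CT mutants, a log2 fold change of -1.17 ± 0.33 (edgeR adjusted p 0.3). Of 18 macrophage and leukocyte markers 13 were tested and 1 was above 0. In edgeR 0 passed and 4 had an unadjusted p under 0.05, all lower (5.46% of all genes tested were). DESeq2 called 1, Ptprc, with an adjusted p of 0.0497. The median log2 fold change was -0.74 against 0.0008 over all genes, at -0.46 in the CG and -0.96 in the CT line. It was -0.53 without CG mutant 1 and -1.13 without CG mutant 2. Ptprc, Fcer1g and Cd53 lay below the wild types in both lines, 3 of 13 against 5.06% of all genes. The 5 markers not tested, C1qa, C1qb, C1qc, Cx3cr1 and Aif1, reached at most 0.282 CPM in any library. Summed over the list, levels were 491 to 572 CPM in CG wild types, 335 in CG mutant 1, 476 in CG mutant 2, 341 to 395 in CT wild types and 356 to 381 in CT mutants. Cd14, a myeloid receptor gene, made up most of each sum and was separated in opposite directions, at -0.38 ± 0.16 in the CG and 0.27 ± 0.16 in the CT line. Sums of the other 12 markers were 45.1 and 51.2 CPM for CG wild types and 17.6 and 51.5 for CG mutants. They were 146 and 99.97 for the wild types of the CT line and 65.9 and 80.3 for its mutants, so that without Cd14 the CT groups did not overlap and the CG groups did. The part of these cells in the values of Pik3cd and Itgal was not tested, and in such bulk samples fewer cells of a type and less RNA per cell cannot be told apart.

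Of the other phosphoinositide 3-kinase genes, Pik3cg, a leukocyte form, lay below the wild types in both lines at -0.68 ± 0.24 (edgeR adjusted p 0.362). The list of 12 had a median of -0.08 with 4 members above 0. In edgeR 0 passed, while at an unadjusted p under 0.05 2 were lower, Pik3cd and Pik3cg, and 2 were higher, the widely expressed catalytic subunit gene Pik3cb at 0.37 ± 0.12 and the regulatory subunit gene Pik3r2 at 0.28 ± 0.12. DESeq2 called Pik3cd.

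Hhip encodes a membrane protein that binds and sequesters hedgehog ligands and is itself a hedgehog target. It was at 3.22 and 3.11 CPM in the CG wild types against 1.45 and 1.14 in the CG mutants, and at 3.1 and 2.14 CPM in the CT wild types against 1.05 and 1.25 in the CT mutants. All mutants lay below all wild types, and the lines had close values, -1.29 ± 0.29 and -1.19 ± 0.29 on the log2 scale for CG and CT, with -1.24 ± 0.20 over both. Further hedgehog genes were looked at after the values were seen. Ihh, the ligand that prehypertrophic chondrocytes make, was at 2.03 and 1.52 CPM in the CG wild types against 0.748 and 0.801 in the CG mutants, and at 0.282 and 0.136 CPM in the CT wild types against 0.0981 and 0.135 in the CT mutants, below the wild types in both lines, with a log2 fold change of -1.09 ± 0.31 (edgeR adjusted p 0.3); in the CT line it was barely detected, and CT wild type 2 and CT mutant 2 were nearly equal. The main receptor and target Ptch1 was at 0.03 ± 0.10, with overlap in the CG line and CT mutants narrowly above CT wild types. The target Gli1, at 0.07 ± 0.30, overlapped in both lines.

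Surface and matrix proteins made up most of the rest. Sdc4, the heparan sulphate proteoglycan syndecan 4, was the most highly counted of the 24 named genes, at 1279 and 1328 CPM in the CG wild types against 818 and 1013 in the CG mutants, and at 1546 and 1241 CPM in the CT wild types against 970.0 and 987 in the CT mutants. The log2 fold change was -0.51 ± 0.10, with -0.51 ± 0.15 in the CG and -0.51 ± 0.15 in the CT line. Every mutant library was below every wild-type library. Thbs3, thrombospondin 3 of cartilage matrix, was at 26.8 and 29 CPM in the CG wild types against 22.2 and 22 in the CG mutants, and at 83.4 and 69.5 CPM in the CT wild types against 56.2 and 55.4 in the CT mutants. Its lines differed more than its genotypes, and the log2 fold change was -0.40 ± 0.07. Cd24a, a small anchored surface glycoprotein, stood at 149 and 129 CPM in the CG wild types against 81.1 and 83.9 in the CG mutants, and at 182 and 107 CPM in the CT wild types against 79 and 91.8 in the CT mutants. CT wild type 1 was its highest library, and the log2 fold change of -0.76 ± 0.15 became -0.58 without that library.

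Pcdh9, a protocadherin, was at 58 and 55.8 CPM in the CG wild types against 24.4 and 30.3 in the CG mutants, and at 16.2 and 13.1 CPM in the CT wild types against 8.99 and 11.6 in the CT mutants, a log2 fold change of -0.79 ± 0.15, with -1.06 ± 0.17 in the CG and -0.51 ± 0.17 in the CT line. Pdgfrl, a secreted protein like the outer part of the PDGF receptor, was at 11.6 and 10.1 CPM in the CG wild types against 6.19 and 7.1 in the CG mutants, and at 14.8 and 13.9 CPM in the CT wild types against 10.4 and 10.9 in the CT mutants, with no mutant as high as any wild type of its line and a log2 fold change of -0.57 ± 0.11. Tmem123, a mucin-like surface protein, had the smallest effect of the lower genes, -0.34 ± 0.07, and ranged from 56.8 to 76.7 CPM in mutants and from 77.1 to 87.8 CPM in wild types. The mutants were thus all below the wild types over both lines.

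Signalling genes made up the remainder. Tob1, an inhibitor of proliferation of the BTG and TOB family, was at 68.3 and 60.5 CPM in the CG wild types against 46.7 and 44.5 in the CG mutants, and at 97.4 and 75.9 CPM in the CT wild types against 68 and 62.6 in the CT mutants, a log2 fold change of -0.45 ± 0.09. Kcnk1, a potassium channel of the two-pore family, had a log2 fold change of -0.49 ± 0.09, and its CT libraries, at 14.6 to 20.4 CPM, were all above its CG libraries, at 4.2 to 6.88. Rasd2, a small GTPase gene, showed the same order of lines, at 7.71 to 15.2 CPM in CT and 1.07 to 2.43 CPM in CG libraries, with -0.76 ± 0.15 on the log2 scale. Tob1, the last gene inside the 12, had an unadjusted edgeR p of 0.000608, and Gabarapl1, an autophagy gene and the first outside, had 0.000715 and a log2 fold change of -0.49 ± 0.10.

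**Figure D3:**
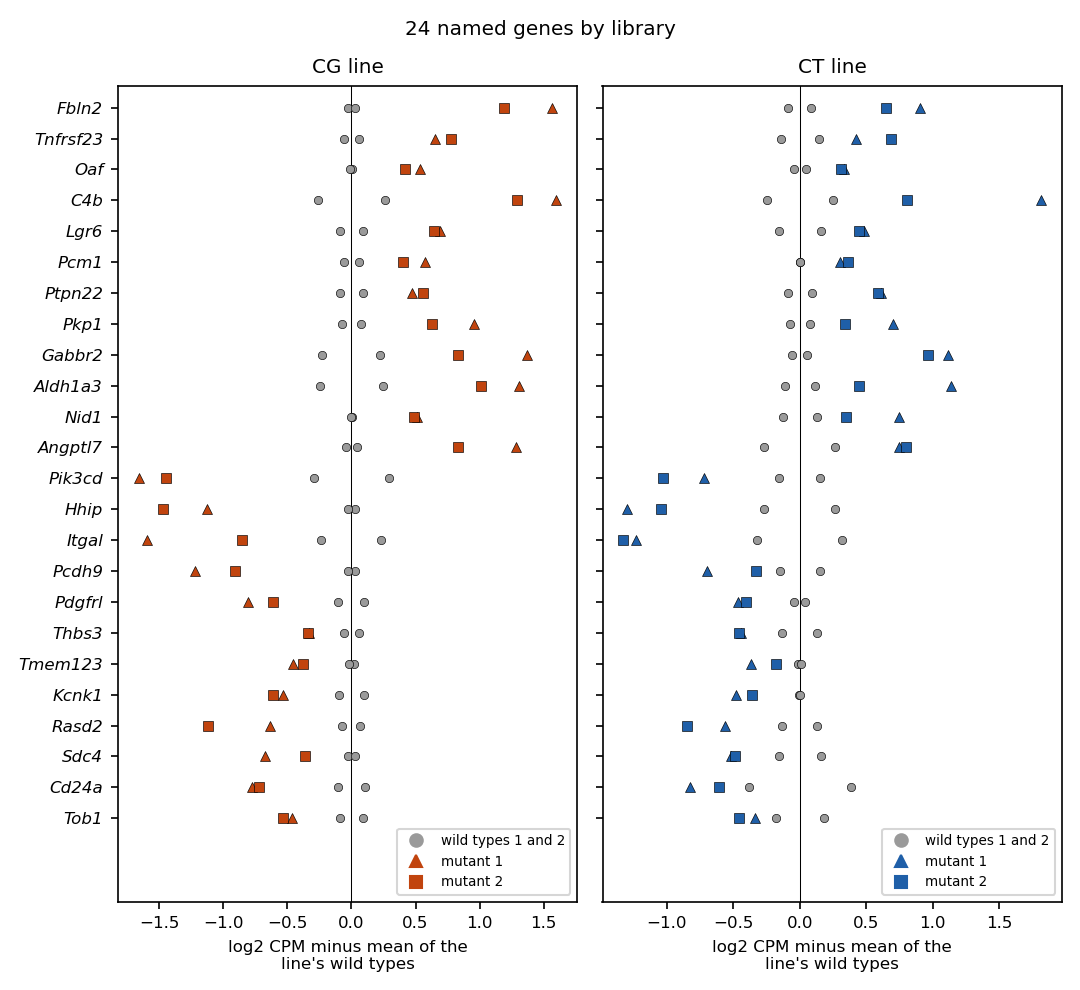
Each row is 1 of the 24 named genes, and the x axis gives log2 CPM minus the mean of the 2 wild types of the line, in the CG line (left) and the CT line (right). Grey points are wild types, triangles mutant 1 and squares mutant 2; the first 12 genes lie to the right of their wild types in both panels and the last 12 to the left, as the rule that chose them requires.

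Genes of the antioxidant response driven by the transcription factor NRF2 were lower together. NRF2 binds the promoters of genes for glutathione synthesis, thioredoxin and peroxide handling and haem breakdown when cells meet oxidants. Of 11 genes on that list, all were tested, 0 passed in edgeR and 0 had a log2 fold change above 0 (50.2% of all genes tested had one). DESeq2 called 3 of them lower, Hmox1, Slc7a11 and Ephx1, against 71 lower among all 14359 genes. The median was -0.62 over both lines, -0.82 in the CG line and -0.30 in the CT line, against 0.0008 over all genes. Of the 11 genes, 7 had an unadjusted edgeR p under 0.05 and were lower (5.46% of all genes tested were), and 6 lay below the wild types in both lines (5.06% of all genes tested did).

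Hmox1, haem oxygenase 1, stood at 1998 and 1850.5 CPM in the CG wild types against 506 and 1157 in the CG mutants, and at 3319 and 2319 CPM in the CT wild types against 2294 and 1809 in the CT mutants. CG mutant 1 was its lowest library by far, and in the CT line CT mutant 1 lay just below CT wild type 2. The log2 fold change was -0.83 ± 0.27 over both lines, -1.21 ± 0.35 in the CG and -0.46 ± 0.35 in the CT line, with an edgeR adjusted p of 0.344. Srxn1, sulfiredoxin, which repairs peroxiredoxins, was at 717 and 562 CPM in the CG wild types against 126 and 312 in the CG mutants, and at 879 and 728 CPM in the CT wild types against 679 and 563 in the CT mutants. Here too the CG groups were wide apart and the CT groups nearly touched, and the log2 fold change was -0.96 ± 0.32, with -1.55 ± 0.36 and -0.37 ± 0.36 in the lines.

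Slc7a11, the cystine importer that feeds glutathione synthesis, was at 467 and 485 CPM in the CG wild types against 204 and 335 in the CG mutants, and at 174 and 107 CPM in the CT wild types against 90.4 and 83 in the CT mutants. Its log2 fold change was -0.76 ± 0.18, with -0.82 ± 0.26 in the CG and -0.70 ± 0.27 in the CT line. The glutathione synthesis enzymes Gclc, at -0.56 ± 0.16, and Gclm, at -0.62 ± 0.20, and the epoxide hydrolase Ephx1, at -0.63 ± 0.15, were the others without overlap. Txnrd1, Prdx1, Gstm1, Gsta4 and Nqo1 had log2 fold changes of -0.63 ± 0.25, -0.31 ± 0.15, -0.34 ± 0.20, -0.30 ± 0.38 and -0.17 ± 0.11, and each overlapped in at least 1 line. EdgeR adjusted p-values of the 11 genes ran from 0.27 to 0.78.

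Nfe2l2, which encodes NRF2 itself, is also among the reported targets of the 5p arm. It was at 216 and 227 CPM in the CG wild types against 156 and 181 in the CG mutants, and at 143 and 111 CPM in the CT wild types against 104 and 102 in the CT mutants. Both mutant pairs lay below their wild types. Over both lines the log2 fold change was -0.35 ± 0.09 (edgeR adjusted p 0.281), from -0.39 ± 0.13 for CG and -0.30 ± 0.13 for CT. Part of the size of the NRF2 list rests on the library that stood apart. Summed levels of the 11 genes were 5302 to 5601 CPM in CG wild types, 3629 in CG mutant 2 and 1959 in CG mutant 1, and 4943 to 6244 in CT wild types against 3996 to 4730 in CT mutants. Without CG mutant 1 the median was -0.38, and without CG mutant 2 it was -0.74.

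**Figure D4:**
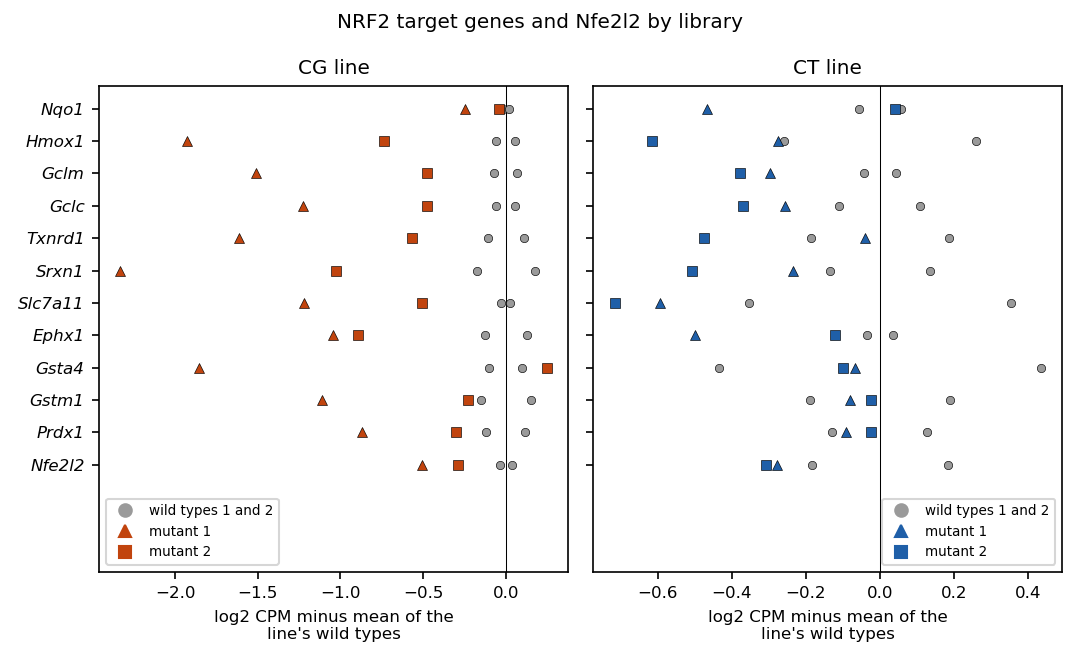
Log2 CPM minus the mean of the 2 wild types of the line (x axis) for the 11 NRF2 target genes and Nfe2l2 (rows), in the CG line (left) and the CT line (right, with a narrower axis). Grey points are wild types, triangles mutant 1 and squares mutant 2; CG mutant 1 lies far to the left for most genes, with Srxn1 at 126 CPM there against 312 in CG mutant 2.

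Genes reported elsewhere as direct targets of the 5p arm were next, since both mutations are described as raising it. Of 17 such genes 16 were tested, and Fgf9 was too low. None passed the edgeR test, and 2 were lower at an unadjusted p under 0.05 (5.46% of all genes tested were). DESeq2 called Nfe2l2. Of the 16, 5 were above 0, and the median log2 fold change was -0.14 over both lines, -0.24 in the CG and -0.04 in the CT line. Without CG mutant 1 it was -0.046. Nfe2l2 and Hdac4 were the members below the wild types in both lines, 2 of 16 against 5.06% of all genes. Hdac4, a class II histone deacetylase that restrains chondrocyte hypertrophy and the best known target of miR-140, was at 52.7 and 52.4 CPM in the CG wild types against 43.3 and 48 in the CG mutants, and at 39.4 and 32.4 CPM in the CT wild types against 30.7 and 29.1 in the CT mutants. The gaps between groups were small, and the log2 fold change was -0.23 ± 0.08 with an edgeR adjusted p of 0.352.

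Among the other 5p targets, the aggrecanase gene Adamts5 and the collagenase gene Mmp13 had the most negative values, -0.66 ± 0.32 and -0.56 ± 0.29, with overlap in at least 1 line. Loxl3 was at 0.27 ± 0.16 and Dnpep, an aspartyl aminopeptidase gene, at 0.25 ± 0.12. The 3 reported 3p targets, Nrip1, Cd38 and Ncoa1, were at -0.18 ± 0.09, -0.13 ± 0.25 and -0.03 ± 0.08, and none lay outside its wild types in both lines.

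The host gene Wwp2 and the cartilage genes Acan, Sox9 and Col2a1 each overlapped with the wild types in at least 1 line. Wwp2 was at 497 and 489.7 CPM in the CG wild types against 1043 and 601 in the CG mutants, and at 244 and 295 CPM in the CT wild types against 206 and 321 in the CT mutants. CG mutant 1 was far above the other libraries of its line and the CT groups overlapped, and the log2 fold change of 0.35 ± 0.23 became 0.093 without CG mutant 1. For Acan the value of 0.34 ± 0.19 likewise became 0.089, and for Sox9 that of 0.23 ± 0.15 became 0.036. In the CG and CT lines Acan was at 0.54 ± 0.27 and 0.14 ± 0.27, and Sox9 at 0.37 ± 0.22 and 0.10 ± 0.22. On the log2 scale Col2a1 differed by 0.36 ± 0.27 between CG mutants and wild types and by -0.54 ± 0.27 between those of the CT line. Over both lines its log2 fold change was -0.09 ± 0.24, and it was 0.013 without CT mutant 1, 0.025 without CT mutant 2 and 0.060 without CT wild type 1. In edgeR the adjusted p-values of all 4 genes ran from 0.522 to 0.919.

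Over the 25 chondrocyte matrix and identity genes, 0 passed in edgeR. At an unadjusted p under 0.05, 2 were higher and 3 lower, against 5.95% and 5.46% of all genes tested. DESeq2 called Ucma, 14 were above 0 and the median was 0.17, from 0.37 in the CG line and -0.08 in the CT line. Without CG mutant 1, whose summed level of 61413 CPM was above the 36097 to 38229 CPM of the other 3 CG libraries, it was -0.07. Ucma, a secreted protein of upper growth plate chondrocytes, lay above the wild types in both lines, at 42.6 and 39.3 CPM in the CG wild types against 151 and 72 in the CG mutants, and at 28.6 and 34.7 CPM in the CT wild types against 58.5 and 53.3 in the CT mutants. Its log2 fold change was 1.13 ± 0.22 (edgeR adjusted p 0.257). Scrg1, which is made during cartilage differentiation, lay below them, at -0.90 ± 0.24. Of 15 hypertrophic genes 5 were above 0 and the median was -0.16, with Sp7, a bone and hypertrophy factor, above the wild types in both lines at 0.54 ± 0.18, and Phospho1, a mineralization phosphatase, below at -0.55 ± 0.20, like Ihh.

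The elastic fibre and fibulin list held Fbln2 and 17 others. Of these 18 genes 12 were above 0, the median was 0.14, and it was 0.24 in the CG line and -0.003 in the CT line. Fbn1, fibrillin 1 of microfibrils, was at 259 and 223 CPM in the CG wild types against 419 and 310.2 in the CG mutants, and at 136 and 156 CPM in the CT wild types against 204 and 173 in the CT mutants, above the wild types in both lines, with a log2 fold change of 0.48 ± 0.12. Efemp2, fibulin 4, was also above, at 0.47 ± 0.16, and Ltbp4, a latent TGF-β binding protein of microfibrils, lay below in both lines at -0.34 ± 0.08. None of the 18 passed the edgeR test. At an unadjusted p under 0.05, 3 were higher and 1 lower, against 5.95% and 5.46% of all genes tested. DESeq2 called Fbln2, Fbn1 and Ltbp4. Without CG mutant 1 the median was 0.08, and without CG wild type 1 it was 0.07.

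Immediate early genes were mostly lower: 1 of 19 was above 0, 8 had an unadjusted edgeR p under 0.05 and were lower (5.46% of all genes tested were), and the median was -0.29, at -0.24 in the CG and -0.32 in the CT line. Fos, Egr1 and Ier2, transcription factors and a cofactor that cells induce within minutes of a stimulus, lay below the wild types in both lines, at -0.53 ± 0.15, -0.33 ± 0.12 and -0.26 ± 0.07. Fos was at 23.4 and 24.9 CPM in the CG wild types against 14.5 and 19.6 in the CG mutants, and at 55.4 and 33.9 CPM in the CT wild types against 29.6 and 31.4 in the CT mutants. CT wild type 1 was the highest library, and the median of the list was -0.16 without it. None passed the edgeR test, and DESeq2 called 1, Ier3.

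Of the other pathways, the median of 20 inflammatory and NF-kB genes was -0.35 (4 above 0), at -0.47 in the CG and -0.08 in the CT line, with Relb lower in both lines at -0.23 ± 0.09. That of 10 interferon-stimulated genes was -0.23, at -0.26 in CG and -0.21 in CT, with Irf7 lower in both lines at -0.33 ± 0.21. The median of 17 cell cycle genes was -0.13 but of opposite sign in the lines, -0.21 in CG and 0.11 in CT, and Ccnd1, cyclin D1, was higher in both lines at 0.55 ± 0.13 while Top2a was lower at -0.32 ± 0.11. For 10 contractile actin genes it was -0.04, again of opposite sign, -0.12 in CG and 0.08 in CT, with Tagln, transgelin, higher in both lines at 0.56 ± 0.15. No member of these 4 lists passed the edgeR test. At an unadjusted p under 0.05 they held 4 higher and 7 lower genes, against 5.95% and 5.46% of all genes tested. DESeq2 called Ccnd1 and Tagln. The inflammatory median was -0.16 without CG mutant 1, and the contractile one changed sign with the library left out, from -0.07 to 0.05.

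Markers of cells other than chondrocytes are given with their values in each line. All 9 neutrophil granule genes were below 0, with a median of -0.93 that came to -0.41 in the CG and -1.40 in the CT line, and to -0.62 without CT mutant 1. Their summed level was 151 to 224 CPM in CT wild types and 67.8 to 87.3 in CT mutants, and 20.5 to 26.1 and 10.6 to 26.9 in the CG wild types and mutants, which overlapped, with CG mutant 1 lowest. None was separated in both lines. Of 7 erythroid genes 2 were above 0 and the median was -0.62. It was 0.42 without CT wild type 1, whose sum of 1535 CPM was the highest, so the direction of that list rests on 1 library. Hba-a1, an α-globin gene with the near-identical copy Hba-a2, lay below the wild types in both lines at -0.88 ± 0.29, an uncertain value. In the CG line it was at only 1.21 to 5.67 CPM. The β-globin genes Hbb-bs and Hbb-bt were the 2 above 0, at 2.43 ± 1.67 and 2.08 ± 1.62. Their CT values were 5.41 ± 1.33 and 4.68 ± 1.38, and their CG values were -0.99 ± 1.32 and -2.27 ± 1.82. Hbb-bt was separated in opposite directions in the lines.

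Medians of 10 endothelial, 11 fibroblast and perichondrium, 5 tendon, 8 skeletal muscle and 4 osteoblast genes were -0.19, -0.10, -0.19, -0.18 and -0.45. In the CG line they were -0.30, -0.35, -0.60, -0.18 and -0.70, and in the CT line -0.03, 0.02, 0.19, 0.07 and -0.36, so that 3 of the 5 had opposite signs. Of these genes, Kera of tendon and Phex of osteoblasts lay below the wild types in both lines, at -0.87 ± 0.34 and -0.64 ± 0.29, and both were at most 1.56 and 0.918 CPM. Within the CG line, CG mutant 1 had the lowest sums of endothelial, tendon, muscle, fibroblast, osteoblast and erythroid markers. It had 26.7 CPM of endothelial, 53.6 of tendon, 21.9 of muscle and 3119 of fibroblast markers, against 51.2 to 64.0, 206 to 249, 62.3 to 96.3 and 4174 to 4481 in the other 3 CG libraries. Its osteoblast and erythroid sums were 1.25 and 2.95 CPM against 3.40 to 4.35 and 10.97 to 16.9. Leaving out CG mutant 1 gave medians of 0.029, 0.059, 0.26 and 0.11 for the endothelial, tendon, muscle and fibroblast lists, all above 0, and -0.17 for osteoblast genes. The part of these cells in the effects of the CG line was not tested.

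**Figure D5:**
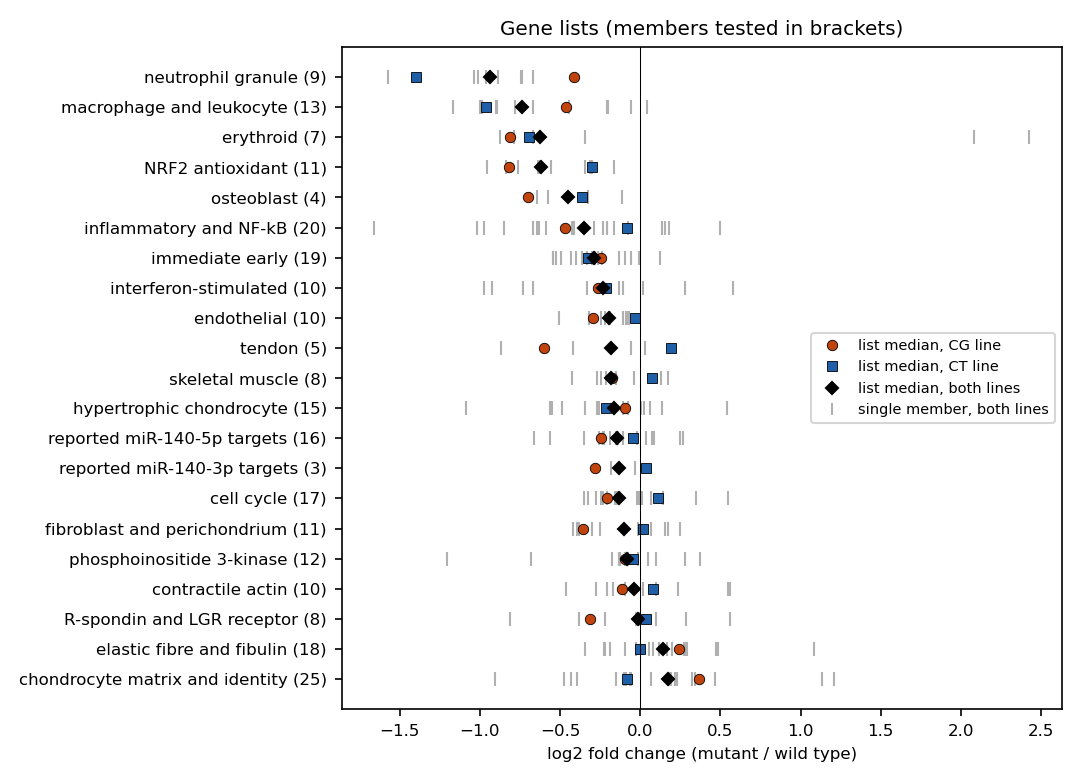
Median log2 fold change (x axis, mutant over wild type) of each of 21 gene lists (rows, with the members tested in brackets) in the CG line (circles), the CT line (squares) and over both (diamonds), with each member over both lines as a grey tick. Medians over both lines run from -0.93 for neutrophil genes to 0.17 for chondrocyte genes, and no list was tested. Of the 249 members tested, each counted once, 0 passed the edgeR test. At an unadjusted p under 0.05, 13 were higher and 46 lower, against 5.95% and 5.46% of all genes tested. DESeq2 called 14 of the members, against 98 higher and 71 lower among all 14359 genes.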

How the data were processed

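mRNA of 8 libraries was profiled on DNBSEQ, per the series design text. HISAT2 2.0.4 and mm9 are named in the submitters' processing notes. The counter and the annotation behind them: not given in the sources used here. Deposited by the authors, per the file headers, was a table of estimated counts and FPKM values for 18501 genes; 2282 to 2518 genes per library had counts that were not whole, and these were rounded. The deposited FPKM values served as alternatives, as log2(FPKM + 1) and log2(FPKM + 0.1). The other deposited tables were not used. Symbols of 24 genes that had become dates were restored.

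EdgeR 4.0.16 in R 4.3.3 fitted a line term and a mutant term (quasi-likelihood F test, TMM, default low-count filter by group, 14359 genes, 5 residual degrees of freedom), with Benjamini-Hochberg adjustment and a threshold of 0.05. A fit of 4 group means (4 residual degrees of freedom) gave the effect in each line and the interaction. Standard errors were computed from the size of the log2 fold change over the root of its F. Overlap was judged on log2 CPM with a prior count of 2. DESeq2 1.42.0, limma 3.58.1 and fits without 1 library were alternatives. Fits that leave 1 library in a group assume that it varies like the others. The p-values measure spread between samples only, and this may be technical. No library was a duplicate of the other library of its group, and pairs across groups were not compared.

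Named genes are the 12 higher and 12 lower ones with the smallest p, no overlap in either line, the same direction and mean log2 CPM of at least 1, unnamed gene models passed over, with Wwp2, Col2a1, Acan, Sox9, interaction genes and list members without overlap. The members and lists were chosen with earlier results of these data known. Matches to the 3p seed were sought in the longest GENCODE M21 3′ UTR (GRCm38) of at least 50 bases, on the sense strand. A search of NRF2 target promoters for the factor's motif was void, because under 80% of the list had a promoter sequence. Some members of these lists are not reported here.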

Additional observations from a re-analysis of the deposited data

Results flagged for a closer look

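The mutant effect differed between the lines for 3 genes (0.0209% of 14359 tested), by the edgeR test of the interaction of line and mutant, where the value given is the CG effect minus the CT effect on the log2 scale. Eif3j2, whose sequence is nearly that of Eif3j1, a subunit gene of a translation initiation factor, was at 129 and 58.9 CPM in the CG wild types against 1.04 and 1.3 in the CG mutants, and at 1.55 and 1.39 CPM in the CT wild types against 57 and 59.5 in the CT mutants. Its difference was -11.62 with an adjusted p of 0.00053, and reads may be divided between the copies. Cwc22, a splicing factor gene, was at 138 and 134 CPM in the CG wild types against 43.3 and 40.0 in the CG mutants, and at 46.1 and 53 CPM in the CT wild types against 239 and 143 in the CT mutants, with a difference of -3.66 and an adjusted p of 0.0148. Palld, which encodes the actin-associated palladin, was at 72.6 and 49.2 CPM in the CG wild types against 151 and 138 in the CG mutants, and at 101 and 107 CPM in the CT wild types against 43.6 and 42.4 in the CT mutants, with a difference of 2.52 and an adjusted p of 0.0239. All 3 had opposite directions in the lines, and their log2 fold changes over both lines were -0.35 ± 3.47, 0.13 ± 0.72 and -0.01 ± 0.46 (SE). Without CG mutant 2 the interaction test called 97 genes, without CT wild type 1 it called 1, and DESeq2 called 38.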

How the results depend on the processing

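Over both lines, edgeR with TMM or DESeq2's size factors, limma-voom, 2 other low-count filters, the mean of both lines in the fit of 4 groups, a Y-linked term, log2(FPKM + 1), log2(FPKM + 0.1) and each of 8 fits without 1 library called 0 genes in either direction, while DESeq2 called 98 higher and 71 lower. The labels do not say what a replicate number marks, and with 2 numbers a line they were not taken to pair the samples: deviations of same-numbered libraries correlated at -0.0892 in the CG and 0.248 in the CT line over 14359 genes, where number 1 also held both libraries with high counts of Y-linked Ddx3y in the CT line (3512 and 3669, against 30 and 10), and a replicate block within each line called 1 higher gene, C4b, with an edgeR adjusted p of 0.031. Separated genes with the same direction numbered 1118 to 1820 higher and 1097 to 1774 lower without 1 library, and 88 higher and 57 lower by an unadjusted p under 0.05 in each line. The interaction called 38 genes with DESeq2 and 1 to 97 without 1 library. Of 744 values of named genes, 707 kept direction and side of the threshold, 34 passed it in addition, and 3 reversed: Col2a1 at 0.013 without CT mutant 1, 0.025 without CT mutant 2 and 0.060 without CT wild type 1, with -0.35 without CG mutant 1 at the other end; the cause was not tested. The 8-base 3p match, which is rarer by construction, was held by 7.29% of higher and 4.38% of lower genes. Of 168 list medians, 6 moved by more than the spread used for them. The description of 5p seed matches was not run, because no mature 5p sequence was used here. With 2 libraries a group and 5 residual degrees of freedom, the test on simulated counts recovered 78% of 2-fold and 98% of 4-fold changes over 14232 genes. It also made 12 false calls. The planted changes had the same size in both lines, and no simulated gene had a mutant effect that differed between the lines. Whether these shares hold for the deposited counts was not tested. In the deposited counts, C4b and Hhip differed by more than 2-fold in both lines. Each had an adjusted p of 0.246 in the line-blocked edgeR test.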

Other observations

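Some further genes lay on the same side of the wild types in both lines and were picked after their values were seen. Genes other than unnamed models with no overlap, an effect above 2-fold in both lines and a mean log2 CPM of at least 1 numbered 10. Beside C4b, Gabbr2, Hhip, Itgal and Ptprc they were Crhr1, a receptor of corticotropin-releasing hormone, at -1.17 ± 0.25 over both lines, the secretory membrane protein gene Scamp5 at 1.03 ± 0.22, the myeloid surface gene Cd33 at -1.30 ± 0.35 and the histone genes Hist1h1e at -1.25 ± 0.28 and Hist1h2br at -1.27 ± 0.34. Histone genes of these clusters have near-identical copies, so the last pair is uncertain. Scamp5 was at 7.1 and 6.11 CPM in the CG wild types against 16.2 and 10.7 in the CG mutants, and at 7.9 and 16.6 CPM in the CT wild types against 23.4 and 26.6 in the CT mutants, so CT wild type 2 reached the level of the CG mutants. None passed the edgeR test. Crhr1, Scamp5, Hist1h1e and Hist1h2br were called by DESeq2.

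Matrix receptors were among them. The integrin genes Itga2, a collagen-binding chain, Itgav and Itga5, a fibronectin-binding chain, lay above the wild types in both lines, at log2 fold changes of 0.80 ± 0.15, 0.38 ± 0.07 and 0.36 ± 0.09. Itga2 was at 28.1 and 32.3 CPM in the CG wild types against 53.9 and 43.9 in the CG mutants, and at 5.33 and 7.78 CPM in the CT wild types against 14.2 and 10.8 in the CT mutants. The growth factor gene Bmp6, at -0.39 ± 0.09, and Gdf5, a joint and cartilage factor, at -0.43 ± 0.10, lay below, while Bmp2, at 0.03 ± 0.19, overlapped. Bmp6 was at 326 and 329 CPM in the CG wild types against 252 and 221 in the CG mutants, and at 346 and 271 CPM in the CT wild types against 251 and 247 in the CT mutants. The 3 integrin genes, Bmp6 and Gdf5 had edgeR adjusted p-values from 0.246 to 0.27 and did not pass. Each of them was called by DESeq2. Of other integrin genes, Itgal lay below the wild types in both lines, and Itgb2, Itgam and Itgax overlapped in the CG or the CT line.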
